A study of Mus musculus with 6 samples.

Results

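Conventional CD4 T cells of skin are helper T cells that carry the CD4 co-receptor and lack Foxp3, the lineage factor of regulatory T cells. They were picked by counts of unique molecular identifiers (UMIs, each standing for 1 captured RNA molecule) from 3 droplet libraries of sorted live CD45+ cells. Kept barcodes had 500 or more UMIs, 300 or more genes and no more than 10% of their UMIs from mitochondrial genes. A kept barcode was taken as a conventional CD4 T cell with at least 2 UMIs of Cd3d, Cd3e and Cd3g together, at least 1 of Cd4, none of Foxp3, Cd8a, Cd8b1 or Trdc, and at most 2 of the myeloid genes C1qa, C1qb, C1qc, Cd207 and Lyz2. This gave 867 cells of 18971 kept CD45+ cells, and of 42767 kept cells in all 6 libraries of the series. The cells were chosen by measured RNA, so the genes of the rule and the contrast with Foxp3+ cells are given as a description.

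The 3 libraries came from UP_Del mice with alopecia, UP_Del mice without alopecia, and wild type mice. UP_Del stands for a deletion of the upstream enhancer of Il2ra, the gene of the alpha chain of the interleukin 2 receptor. All mice were untreated adult females aged 17 to 18 weeks, all libraries have the genotype label C57/BL6, and the tissue was whole skin without its hypodermis, digested with enzymes. The zygosity of the deletion, any limit of it to certain cells, and the number of mice behind a library are not given in the sources used here. Each group is 1 library, so differences between groups come without replicates and could not be tested. Intervals are 95% (exact Poisson for levels, Clopper-Pearson for shares, conditional binomial for ratios) and cover counting error only.

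Helper T cells recognise peptide on MHC class II and act through cytokines and through CD40 ligand. Type 1 cells, driven by T-bet, make interferon gamma; type 17 cells make interleukins 17A, 17F and 22 and act on epithelium; type 2 cells, driven by GATA3, make interleukins 4, 5 and 13. After activation they make interleukin 2, which regulatory T cells take up through the high-affinity receptor that holds the alpha chain. In skin many of them are long-lived resident memory cells, and T cells around the hair follicle are the hallmark of alopecia areata.

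Of the markers given for these cells, Cd40lg set them apart from Foxp3+ cells, while Trac and Icos are expressed by both. Trac, the constant region of the T-cell receptor alpha chain, stood at 504 CPM (counts per 1000000 UMIs of these cells) in the alopecia library, 431 in the no-alopecia library and 472 in wild type, against 415, 255 and 443 CPM in Foxp3+ cells of the alopecia, no-alopecia and wild-type libraries. Cd40lg, which encodes CD40 ligand, stood at 342, 371 and 429 CPM in the alopecia, no-alopecia and wild-type libraries, against 34.8, 44.2 and 42.2 CPM in Foxp3+ cells of the alopecia, no-alopecia and wild-type libraries. Icos, a costimulatory receptor, was at 1436 CPM with alopecia, 2051 CPM without alopecia and 1947 CPM in wild type, against 1874 CPM with alopecia, 1702 CPM without alopecia and 1906 CPM in wild type in Foxp3+ cells. The cells held 1261747 UMIs in the alopecia library, 603641 in the no-alopecia library and 2378654 in wild type, with medians per cell of 3798.5 with alopecia, 4553 without alopecia and 4462 in wild type. The wild-type values thus rest on the most RNA and the no-alopecia values on the least.

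The gate lies in a dense region. Of the members, 163 of the alopecia library, 64 of the no-alopecia library and 239 of wild type had exactly 1 Cd4 UMI. Barcodes that met every other condition but had no Cd4 UMI numbered 1150 with alopecia, 464 without alopecia and 1070 in wild type, of which 667 with alopecia, 232 without alopecia and 734 in wild type held Trac. Just outside on the Foxp3 side were 57 cells with alopecia, 18 without alopecia and 29 in wild type that had exactly 1 Foxp3 UMI. The rule may thus miss helper cells whose Cd4 RNA was not caught, and may include regulatory cells whose Foxp3 RNA was not caught. Libraries shared 48 barcodes (alopecia and no alopecia), 87 (alopecia and wild type) and 34 (no alopecia and wild type), with no barcode that was a member in both.

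Single barcodes held much of the keratinocyte, mast cell and dendritic cell marker RNA, though dendritic cell markers were also found in many cells. The 5 keratinocyte markers summed to 458 CPM with alopecia, 953 CPM without alopecia and 140 CPM in wild type, and a single cell held 46.7%, 51.3% and 91.3% of that sum in the alopecia, no-alopecia and wild-type libraries. The 4 fibroblast markers summed to 480 CPM with alopecia, 1.66 CPM without alopecia (Col1a1, Col1a2 and Dcn at 0) and 3.78 CPM in wild type. With alopecia a single cell held 51.7% of the fibroblast sum. The 4 mast cell markers summed to 645, 194 and 380 CPM in the alopecia, no-alopecia and wild-type libraries, and a single cell held 98.4%, 100% and 73.3% of that sum. Hemoglobin RNA was at 17.4 CPM with alopecia, 0 without alopecia and 0.42 CPM in wild type. The 8 gamma delta T cell markers, with Trdc at 0 by the rule, summed to 36.5, 18.2 and 27.3 CPM in the alopecia, no-alopecia and wild-type libraries. The 7 dendritic cell markers summed to 767 CPM with alopecia, 550 CPM without alopecia and 745 CPM in wild type, and the 6 macrophage markers to 33.3, 18.2 and 15.6 CPM in the alopecia, no-alopecia and wild-type libraries. A single cell held 31.1%, 54.2% and 29.9% of the dendritic sum in the alopecia, no-alopecia and wild-type libraries. A dendritic cell marker was found in 52.8% of cells with alopecia, 45% without alopecia and 40.9% in wild type. A macrophage marker was found in 10.7% with alopecia, 5.83% without alopecia and 7.002% in wild type. The part of these cells in the results was not tested, save where a value without them is given.

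Conventional CD4 T cells made up a smaller part of the CD45+ cells in both UP_Del libraries than in wild type. They were 290 of 9206 kept cells with alopecia (3.15%, 2.80 to 3.53), 120 of 3278 without alopecia (3.66%, 3.04 to 4.36) and 457 of 6487 in wild type (7.04%, 6.43 to 7.69). The ratio to wild type was 0.447 (0.385 to 0.519) with alopecia and 0.520 (0.421 to 0.637) without alopecia. Between the UP_Del libraries the ratio, alopecia over no alopecia, was 0.861 (0.693 to 1.07), an interval that holds equality. Over all cells with at least 2 CD3 UMIs, which were 58.1% of kept cells with alopecia, 59.6% without alopecia and 69.6% in wild type, the ratio to wild type was 0.536 (0.461 to 0.623) with alopecia and 0.607 (0.492 to 0.743) without alopecia. These are shares of the sorted CD45+ gate, not cell numbers in skin, and a rule that asks for a Cd4 UMI finds more cells at greater depth. With every barcode thinned to 1000 UMIs first, members were 0.858% of cells with alopecia, 0.838% without alopecia and 1.48% in wild type, so that the log2 ratio of alopecia to wild type was -0.79 in place of -1.16.

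Foxp3+ CD4 T cells, found by the same rule with at least 1 Foxp3 UMI, were at close shares: 2.23% with alopecia, 2.14% without alopecia and 2.16% in wild type. Foxp3+ cells were therefore 41.4% (37.0 to 45.9) of CD4 T cells with alopecia, 36.8% (30.0 to 44.1) without alopecia and 23.5% (20.1 to 27.1) in wild type. For each conventional cell there were 0.707 Foxp3+ cells with alopecia, 0.583 without alopecia and 0.306 in wild type, which is 2.31-fold (1.85 to 2.88) the wild-type value with alopecia and 1.90-fold (1.41 to 2.55) without alopecia. CD8 T cells, by the matching rule, showed a gap of the same direction as the conventional cells, with 2.53% in the alopecia library, 2.75% in the no-alopecia library and 8.39% in wild type.

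**Figure D1:**
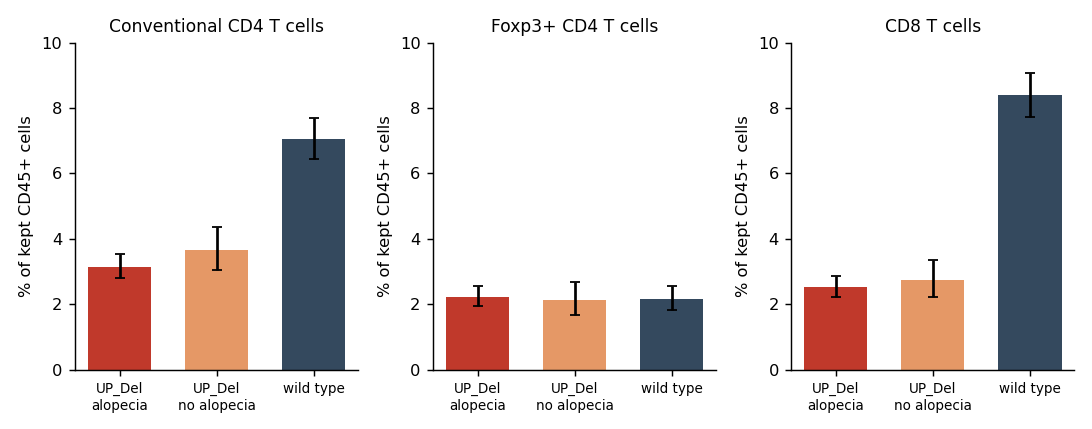
Share of kept CD45+ cells (percent, y axis, from 0) taken by conventional CD4, Foxp3+ CD4 and CD8 T cells in the 3 libraries (x axis); each bar is 1 library and each error bar a 95% Clopper-Pearson interval for counting error. The wild-type bar stands above both UP_Del bars for conventional CD4 (7.04%) and CD8 T cells (8.39%), and the 3 Foxp3+ bars lie between 2.14% and 2.23%.

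Il2ra, at chromosome 2, 11642807 to 11693193 on the plus strand of GRCm38 (GENCODE vM21), is the gene whose enhancer was removed; the deletion spares the transcribed gene, so its level checks the label only in part. Conventional cells had 133 Il2ra UMIs with alopecia, 39 without alopecia and 327 in wild type, which is 105 CPM (88.3 to 125), 64.6 CPM (45.9 to 88.3) and 137 CPM (123 to 153). On the log2 scale the level differed from wild type by -0.38 (-0.69 to -0.09) with alopecia and by -1.09 (-1.61 to -0.61) without alopecia, and alopecia over no alopecia was 0.71 (0.18 to 1.26). The no-alopecia library was the lowest of the 3. Cells with an Il2ra UMI were 22.1% with alopecia, 19.2% without alopecia and 26.04% in wild type. In fibroblast-like cells of the same libraries, which should lack it and had medians of 3129.5, 3400.5 and 4403 UMIs, the share was 0.617% with alopecia, 0.4% without alopecia and 0.909% in wild type. Thinned to 1000 UMIs, which leaves out 2 shallower members with alopecia, 2 without alopecia and 0 in wild type, the share was 8.33% with alopecia, 5.08% without alopecia and 12.0% in wild type.

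Most of the difference between the UP_Del libraries sat in the cells with RNA of Ikzf2, which encodes Helios, a factor that most Foxp3+ cells carry. An Ikzf2 UMI was found in 54 conventional cells with alopecia, 20 without alopecia and 80 in wild type. Their Il2ra level was 297 CPM (236 to 368) with alopecia, 88.8 CPM (42.6 to 163) without alopecia, from only 10 UMIs, and 386 CPM (330 to 448) in wild type. The ratio of alopecia to no alopecia was 3.34 (1.73 to 7.22) in these cells. Cells without an Ikzf2 UMI had 50.9 CPM (37.8 to 67.1) with alopecia, 59.1 CPM (39.6 to 84.8) without alopecia and 80.2 CPM (68.1 to 93.9) in wild type. Here the log2 ratio of alopecia to no alopecia was -0.21 (-0.90 to 0.50), of alopecia to wild type -0.66 (-1.15 to -0.19) and of no alopecia to wild type -0.44 (-1.07 to 0.14). The direction between the UP_Del libraries thus turned with Ikzf2+ cells left out, while both stayed below wild type. Ctla4, an inhibitory receptor rich in regulatory T cells, was at 1340, 870 and 1348 CPM in the Ikzf2+ cells of the alopecia, no-alopecia and wild-type libraries, at 378, 340 and 380 CPM in those without Ikzf2, and at 2843, 3053 and 2997 CPM in Foxp3+ cells. In Foxp3+ cells Il2ra was at 366 CPM with alopecia, 343 CPM without alopecia and 801 CPM in wild type. The difference in ratio between Ikzf2+ and other cells was not tested.

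**Figure D2:**
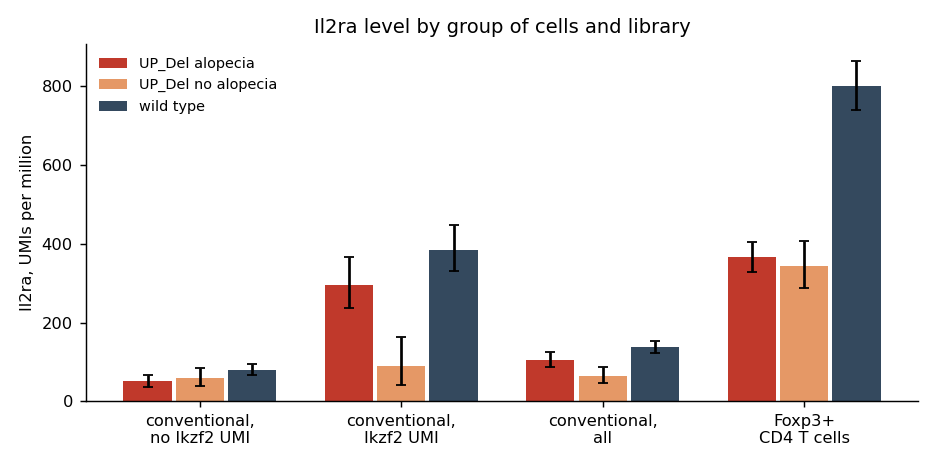
Il2ra level (CPM, y axis, from 0) in conventional CD4 T cells without an Ikzf2 UMI, with one, in all of them, and in Foxp3+ CD4 T cells (x axis); bars are single libraries and error bars 95% exact Poisson intervals. In Ikzf2+ conventional cells the no-alopecia bar (88.8) is far below the alopecia (297) and wild-type (386) bars, and in Foxp3+ cells both UP_Del bars (366 and 343) are below wild type (801).

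Among the other genes of the interleukin 2 axis, the cytokine itself was higher with alopecia, while the receptor chains that it shares were closer between libraries. Il2 was at 144 CPM with alopecia (182 UMIs in 70 cells), 86.1 CPM without alopecia (52 UMIs in 25 cells) and 59.7 CPM in wild type (142 UMIs in 95 cells), a log2 ratio to wild type of 1.27 (0.95 to 1.60) with alopecia and 0.53 (0.04 to 1.00) without alopecia. With members picked after thinning to 1000 UMIs, which leaves 75 cells with alopecia, 26 without alopecia and 93 in wild type, the ratio of alopecia to wild type was -0.54 (-2.46 to 1.19). Il2rb, the beta chain, was at 520, 555 and 630 CPM and Il2rg, the common gamma chain, at 563, 630 and 592 CPM in the alopecia, no-alopecia and wild-type libraries. Cish, an early target of STAT5, was at 300 CPM with alopecia, 300 CPM without alopecia and 328 CPM in wild type. Of 20 measured genes of the STAT5 and interleukin 2 response (at least 50 UMIs over both libraries of a comparison), 2 were at least 1.5-fold higher and 1 lower in the alopecia library than in the no-alopecia library. Over all 4906 genes measured in that comparison 9.42% were higher and 6.03% lower by this measure, so this count is near the background. Against wild type, 2 were higher (Bcl2 and Myc, at 0.81 and 0.91) and 1 lower (Gzmb) with alopecia, and 0 higher and 1 lower (Il2ra) without alopecia. The background was 5.97% higher and 4.81% lower of 6772 genes with alopecia, and 6.88% higher and 8.27% lower of 6146 genes without alopecia. With trimmed-mean scaling these counts over all genes were 303 higher and 401 lower with alopecia against wild type, in place of 404 and 326, and 277 higher and 678 lower without alopecia against wild type, in place of 423 and 508. The median log2 ratio over all measured genes was 0.02 for alopecia over no alopecia, 0.04 for alopecia over wild type and 0.01 for no alopecia over wild type, and the 3 comparisons share their libraries.

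Il17a and Il17f RNA was low in the no-alopecia library and closer between the alopecia and wild-type libraries. Among the genes named as higher with than without alopecia, ranked by their interval, Il17f was number 1 and Il17a number 3. They are neighbouring genes on chromosome 1, and the 250 bases before their RefSeq starts are shown (GRCm38.p6). Capitals mark AGGTCA, a core motif of nuclear receptors, Rora among them, or its reverse complement TGACCT. The Il17a stretch is chr1:20730655-20730904 on the plus strand and the Il17f stretch chr1:20784271-20784520 on the minus strand, both written 5′ to 3′ along the gene.
Il17a: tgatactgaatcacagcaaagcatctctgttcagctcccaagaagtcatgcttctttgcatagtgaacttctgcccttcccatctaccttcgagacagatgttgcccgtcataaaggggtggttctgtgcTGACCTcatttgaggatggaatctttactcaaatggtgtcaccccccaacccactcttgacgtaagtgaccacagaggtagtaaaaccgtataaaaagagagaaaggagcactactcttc
Il17f: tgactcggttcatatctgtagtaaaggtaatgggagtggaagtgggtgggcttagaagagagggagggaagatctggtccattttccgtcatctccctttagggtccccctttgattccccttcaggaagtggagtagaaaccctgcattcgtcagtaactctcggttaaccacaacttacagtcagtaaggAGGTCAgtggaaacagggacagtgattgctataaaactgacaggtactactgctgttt
On either strand the motif occurred at position -120 from the RefSeq start of Il17a and at -58 from that of Il17f. A match is only a run of letters: 4607 of 32851 promoters of the same window in that table (14.02%) held it. The genes run from 20730905 to 20734496 on the plus strand (Il17a) and from 20777146 to 20790617 on the minus strand (Il17f) in GENCODE vM21. There Il17f also has a longer transcript that starts upstream, so the Il17f stretch lies before the RefSeq start but inside the GENCODE gene.

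Il17a had 348 UMIs in 17 cells with alopecia, 47 UMIs in 6 cells without alopecia and 491 UMIs in 43 cells in wild type. This is 276 CPM (248 to 306), 77.9 CPM (57.2 to 104) and 206 CPM (189 to 226), and a log2 ratio of 1.82 (1.38 to 2.30) for alopecia over no alopecia. Positive cells were 5.86% with alopecia, 5% without alopecia and 9.41% in wild type, so that the alopecia library held no clearly larger share of producers than the no-alopecia library. Among fibroblast-like cells the share was 0 of 162 with alopecia, which allows up to 1.85%, 0.4% without alopecia and 0.909% in wild type. After thinning, members with an Il17a UMI were 3.12% with alopecia, 4.24% without alopecia and 5.03% in wild type. The gap in level came from cells with much RNA: the highest cell had 101 UMIs with alopecia, 14 without alopecia and 71 in wild type, while the median positive cell had 5 with alopecia, 6 without alopecia and 5 in wild type. The 3 highest cells gave 70.4% of the Il17a UMIs with alopecia, 66.0% without alopecia and 38.3% in wild type. Without the top cell of each library the log2 ratio of alopecia to no alopecia was 1.84.

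Il17f had 200 UMIs in 21 cells with alopecia, 11 UMIs in 6 cells without alopecia and 387 UMIs in 42 cells in wild type. The levels were 159 CPM (137 to 182) with alopecia, 18.2 CPM (9.10 to 32.6) without alopecia and 163 CPM (147 to 180) in wild type. Alopecia over no alopecia was 3.12 (2.25 to 4.15), alopecia over wild type -0.04 (-0.29 to 0.21) and no alopecia over wild type -3.16 (-4.17 to -2.30) on the log2 scale. In members picked after thinning, no alopecia over wild type was -2.33 (-7.71 to 0.33), an interval that holds equality. Cells with an Il17f UMI were 7.24% with alopecia, 5% without alopecia and 9.19% in wild type. The 3 highest cells gave 64%, 72.7% and 32.8% of the Il17f UMIs in the alopecia, no-alopecia and wild-type libraries. Il22, made by part of the type 17 cells, had 3 UMIs in 3 cells with alopecia, 0 without alopecia and 128 in 7 cells of wild type, 51.6% of them in 1 cell. The no-alopecia value is at least 10.8-fold lower than wild type (against a floor of 3 counts in the group; without the highest wild-type cell this bound is -2.40 on the log2 scale), and the log2 ratio of alopecia to wild type was -4.50 (-6.80 to -2.92). Outside these cells the order was another: in the other CD45+ cells, Il17a stood at 171 CPM with alopecia, 146 CPM without alopecia and 179 CPM in wild type, and Il17f at 70.5 CPM with alopecia, 97.7 CPM without alopecia and 58.9 CPM in wild type. This contrast between cell groups was not tested.

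**Figure D3:**
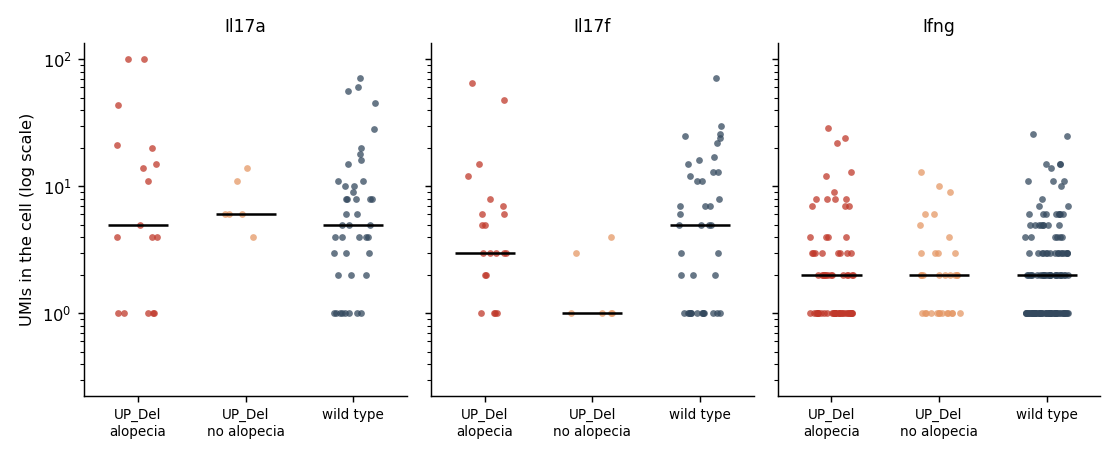
UMIs of Il17a, Il17f and Ifng in each conventional CD4 T cell that held at least 1 (y axis, log scale), by library (x axis); a point is a cell and a bar the median of the positive cells. Cells above 40 Il17a UMIs occur in the alopecia and wild-type libraries, the highest no-alopecia cell has 14, and Ifng reaches 29 with alopecia, 13 without alopecia and 26 in wild type.

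Several receptors and other genes of the type 17 programme went the same way as the cytokines. Of 13 measured members, 5 were at least 1.5-fold higher and 0 lower in the alopecia library than in the no-alopecia library, with a median log2 ratio of 0.22; over all genes 9.42% were higher. The 5 were Il1r1, the interleukin 1 receptor (2.04, 0.91 to 3.41), Tmem176b (1.28), Ahr, the aryl hydrocarbon receptor (0.85), Tmem176a (0.78) and Il23r, the interleukin 23 receptor (0.71, -0.09 to 1.58). Il1r1 had 60 UMIs in 22 cells with alopecia (47.6 CPM), 7 UMIs in 5 cells without alopecia (11.6 CPM) and 112 UMIs in 45 cells in wild type (47.1 CPM). Without alopecia against wild type, 8 of 16 measured members were lower and 0 higher, median -0.39, against 8.27% lower over all genes. They were Il17re, Ltb4r1, Il1r1, Tmem176b, Ahr, Il23r, Aqp3 and Tmem176a. With alopecia against wild type 2 of 17 were lower (Il17re and Aqp3) and 0 higher, median -0.01. Rora, a nuclear receptor that promotes type 17 fate, differed by at most 0.11 in any comparison.

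A UMI of Il17a, Il17f or Il22 was found in 26 cells with alopecia (8.97%, 5.94 to 12.9), 9 without alopecia (7.5%, 3.49 to 13.8) and 56 in wild type (12.3%, 9.39 to 15.6). Thinned, they were 4.51%, 6.78% and 8.75% in the alopecia, no-alopecia and wild-type libraries, and among fibroblast-like cells 0% (up to 1.85%), 0.8% and 1.82%. Genes that the count did not use marked them in each library: Il1r1 was at 288 CPM in these cells against 14.4 CPM in the other members with alopecia, 64.1 against 5.54 CPM without alopecia, from 4 and 3 UMIs, and 207 against 12.8 CPM in wild type. Ccr6, a chemokine receptor of type 17 cells, was at 236 against 79.3 CPM with alopecia, 208 against 70.2 CPM without alopecia and 243 against 57.7 CPM in wild type. Nkg7, a granule protein, went the other way, at 13.1 against 409 CPM with alopecia, 0 against 333 CPM without alopecia and 64.4 against 354 CPM in wild type. Il17a and Ifng were found together in 0 of 17 Il17a+ cells with alopecia, 0 of 6 without alopecia and 2 of 43 in wild type. A gamma delta chain UMI was found in 2, 0 and 5 of the Il17a+ cells of the alopecia, no-alopecia and wild-type libraries.

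RNA of type 1 genes was common. A UMI of Tbx21 (T-bet), Ifng or Cxcr3, a chemokine receptor of type 1 cells, was found in 48.3% (42.4 to 54.2) of cells with alopecia, 63.3% (54.0 to 71.9) without alopecia and 59.5% (54.9 to 64.1) in wild type. Thinned, the shares were 27.8%, 32.2% and 32.2% in the alopecia, no-alopecia and wild-type libraries, and among fibroblast-like cells 0% (up to 1.85%), 0.4% and 0.909%. Ifng itself had 263 UMIs in 72 cells with alopecia (208 CPM), 96 UMIs in 33 cells without alopecia (159 CPM) and 445 UMIs in 134 cells in wild type (187 CPM), and its log2 ratio of alopecia to no alopecia was 0.39 (0.05 to 0.74). Tbx21 was at 117 CPM with alopecia, 207 CPM without alopecia and 134 CPM in wild type, so that it was lower with than without alopecia by a log2 ratio of -0.83 (-1.18 to -0.47). Ccl5, a chemokine of effector T cells, went the other way, at 360 CPM with alopecia, 144 CPM without alopecia and 286 CPM in wild type (alopecia over no alopecia 1.32, 0.99 to 1.67). Over the type 1 list, 1 of 11 measured genes was higher and 2 lower with than without alopecia, a median of -0.13. Over all genes 9.42% were higher and 6.03% lower in that comparison. Against wild type 4.81% of all genes were lower with alopecia, and 8.27% lower and 6.88% higher without alopecia. In this list 3 of 14 were lower than wild type with alopecia and 2 of 13 lower and 1 higher without alopecia. Il12rb2, a chain of the interleukin 12 receptor, was among the lower genes in both: it had 28 UMIs with alopecia (22.2 CPM), 14 without alopecia (23.2 CPM) and 165 in wild type (69.4 CPM). Its log2 ratio to wild type was -1.64 (-2.28 to -1.06) with alopecia and -1.58 (-2.48 to -0.79) without alopecia.

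Type 2 cytokine RNA was rare. A UMI of Il4, Il5 or Il13 was found in 6.55% of cells with alopecia, 9.17% without alopecia and 10.3% in wild type, and in 4.17%, 4.24% and 3.72% of thinned cells; in fibroblast-like cells the shares were 1.23%, 0.4% and 0% (up to 2.73%). Il13 had 51 UMIs in 10 cells with alopecia, 54 UMIs in 11 cells without alopecia and 222 UMIs in 28 cells in wild type, of which the highest cell held 113. Il1rl1, the receptor of the alarmin interleukin 33, had 107 UMIs in 40 cells with alopecia (84.8 CPM), 16 UMIs in 9 cells without alopecia (26.5 CPM) and 99 UMIs in 31 cells in wild type (41.6 CPM). Its log2 ratio was 1.68 (0.91 to 2.54) for alopecia over no alopecia and 1.03 (0.62 to 1.44) for alopecia over wild type, and the first was 0.00 (-1.31 to 1.43) with Ikzf2+ cells left out. Areg, the growth factor amphiregulin, was at 295 CPM in 65 cells with alopecia, 92.8 CPM in 26 cells without alopecia and 305 CPM in 110 cells in wild type. Alopecia over no alopecia was 1.67 (1.26 to 2.10) and no alopecia over wild type -1.72 (-2.14 to -1.32) on the log2 scale.

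Of 10 measured genes of the regulatory programme other than Foxp3, 3 were at least 1.5-fold higher and 0 lower with than without alopecia (Ikzf2, Il2ra and Areg), with a median of 0.32, against 9.42% higher over all genes. Against wild type 2 were higher and 0 lower with alopecia (Ikzf2 and Tnfrsf9, the costimulatory receptor 4-1BB), with a median of 0.23, against 5.97% higher over all genes, and Il2ra and Areg were at -0.38 and -0.05. Without alopecia against wild type 0 were higher and 2 lower (Areg and Il2ra). Ikzf2 itself was at 199 CPM with alopecia, 131 CPM without alopecia and 127 CPM in wild type. The share of Ikzf2+ cells was 18.6% with alopecia, 16.7% without alopecia and 17.5% in wild type, or 12.2%, 6.78% and 7.88% after thinning, against 92.2%, 92.9% and 90.7% of Foxp3+ cells and 6.17%, 4.4% and 6.36% of fibroblast-like cells. Of the inhibitory receptors, Pdcd1 (PD-1) was at 153 CPM with alopecia, 230 CPM without alopecia and 109 CPM in wild type. It was higher than in wild type by 0.48 (0.21 to 0.76) with alopecia and by 1.07 (0.77 to 1.38) without alopecia. Klrg1, a receptor of differentiated T cells, was at 46.8 CPM with alopecia, 16.6 CPM without alopecia and 18.5 CPM in wild type (alopecia over wild type 1.34, 0.75 to 1.94), and Tox, a factor of persistently stimulated T cells, at 395, 237 and 229 CPM in the alopecia, no-alopecia and wild-type libraries. Over the 9 measured inhibitory receptors 2 were higher and 2 lower with than without alopecia, against 9.42% and 6.03% over all genes.

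Targets of interferon gamma were lower with alopecia than in wild type. Of 19 measured, 8 were at least 1.5-fold lower and 1 higher, and the median was -0.52; over all genes 4.81% were lower and 5.97% higher. Tgtp2, an interferon-induced GTPase, had 4 UMIs with alopecia (3.17 CPM), 28 without alopecia (46.4 CPM) and 56 in wild type (23.5 CPM), a log2 ratio of alopecia to wild type of -2.89 (-4.82 to -1.46). The guanylate-binding protein Gbp2 had 14 UMIs with alopecia (11.1 CPM), 16 without alopecia (26.5 CPM) and 110 in wild type (46.2 CPM), a ratio of -2.06 (-2.98 to -1.25). Igtp, of the same immunity-related GTPases as Tgtp2, was at 26.9 CPM with alopecia, 87.8 CPM without alopecia and 69.8 CPM in wild type (alopecia over wild type -1.37, -1.95 to -0.83). Irf1, a transcription factor induced by interferon gamma, was at 113, 126 and 179 CPM in the alopecia, no-alopecia and wild-type libraries. Irf8, another such factor, was the higher gene (0.83). Without alopecia against wild type 4 of 19 were lower and 3 higher (8.27% and 6.88% over all genes), with a median of -0.03, and with against without alopecia 2 of 12 were lower and 1 higher, with a median of -0.18. Ifng RNA did not share this order, as given above.

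A gap of another kind concerned Ly6e and Ly6a, neighbouring genes of GPI-anchored surface proteins on chromosome 15 (74955051 to 74959905 on the plus strand and 74994877 to 74998031 on the minus strand, GRCm38, GENCODE vM21). Ly6e was at 188 CPM (165 to 213) with alopecia, 212 CPM (177 to 252) without alopecia and 1102 CPM (1061 to 1145) in wild type, and was found in 93 cells with alopecia, 41 without alopecia and 431 in wild type. Ly6a, which encodes Sca-1, was at 34.9 CPM (25.3 to 46.8) with alopecia, 36.4 CPM (22.8 to 55.2) without alopecia and 298 CPM (277 to 321) in wild type, in 10 cells with alopecia, 7 without alopecia and 240 in wild type. The log2 ratio of Ly6a to wild type was -3.10 (-3.57 to -2.66) with alopecia and -3.03 (-3.72 to -2.42) without alopecia, and that of Ly6e was -2.55 (-2.75 to -2.36) with alopecia and -2.38 (-2.65 to -2.12) without alopecia. In the alopecia library 1 cell held 40.9% of the Ly6a UMIs.

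Ly6e was likewise highest in wild type in other leukocytes. It was at 337, 195 and 1891 CPM in Foxp3+ cells, 235, 260 and 1081 CPM in CD8 T cells, 149, 147 and 1697 CPM in gamma delta T cells and 124, 46.5 and 966 CPM in macrophage-like cells of the alopecia, no-alopecia and wild-type libraries. Fibroblast-like cells did not follow: Ly6e was at 308 CPM with alopecia, 426 CPM without alopecia and 201 CPM in wild type, and Ly6a at 1636 CPM with alopecia, 2061 CPM without alopecia and 1324 CPM in wild type. Cd52, another GPI-anchored surface protein, was in the conventional cells at 1648 CPM with alopecia, 1819 CPM without alopecia and 1645 CPM in wild type.

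**Figure D4:**
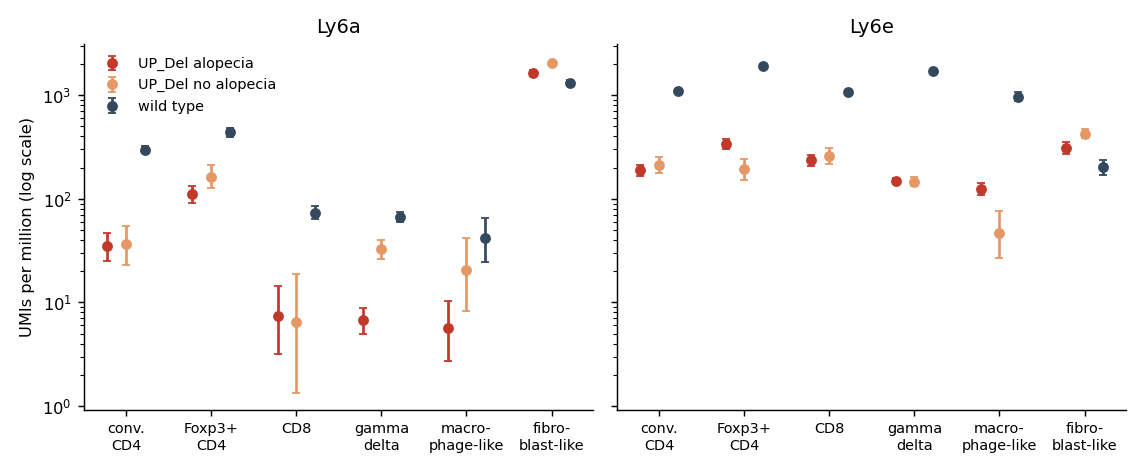
Ly6a and Ly6e levels (CPM, y axis, log scale) in 6 cell groups (x axis) of the 3 libraries; points are single libraries and bars 95% exact Poisson intervals. Wild type lies above both UP_Del libraries in every leukocyte group for Ly6e, with 1102 against 188 (alopecia) and 212 (no alopecia) in conventional CD4 T cells, and below them in fibroblast-like cells.

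Several naive and central memory genes were lowest without alopecia. With alopecia 3 of 9 measured were higher and 0 lower than without (S1pr1, the receptor for exit from tissue, at 1.18; Lef1, a factor of naive T cells, at 0.97; Il7r, the interleukin 7 receptor, at 0.67), median 0.33. Over all genes 9.42% were higher and 6.03% lower in that comparison. Against wild type, 8.27% of all genes were lower and 6.88% higher without alopecia, and 4.81% lower and 5.97% higher with alopecia. Without alopecia against wild type 4 of 9 listed genes were lower and 0 higher (Satb1, Lef1, S1pr1 and Bach2), median -0.42. With alopecia against wild type 1 was lower and 0 higher: Satb1, a chromatin organiser, was at 91.9 CPM with alopecia, 74.5 CPM without alopecia and 201 CPM in wild type. Tissue residency genes were close to even, with counts no further from even than the shares over all genes. Of 16, 0 were higher and 1 lower with than without alopecia. Against wild type 1 was higher and 0 lower with alopecia, and 1 higher and 0 lower without alopecia. The higher gene was Itga1, the collagen receptor CD49a, at 44.4 CPM with alopecia, 56.3 CPM without alopecia and 25.6 CPM in wild type. Itgae, the E-cadherin receptor CD103, was at 307, 383 and 279 CPM in the alopecia, no-alopecia and wild-type libraries.

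Among immediate early genes, which respond fast to stimulation, 5 of 21 were higher and 1 lower with than without alopecia, median 0.20. Over all genes 9.42% were higher and 6.03% lower in that comparison. Fos, part of the AP-1 factor, was at 965 CPM in 182 cells with alopecia, 431 CPM in 63 cells without alopecia and 776 CPM in 277 cells in wild type (alopecia over no alopecia 1.16, 0.97 to 1.36). Zfp36, which degrades cytokine messages, was at 1423 CPM with alopecia, 757 CPM without alopecia and 1060 CPM in wild type (0.91, 0.76 to 1.06), and at -0.19 (-0.80 to 0.45) in members picked after thinning. Junb, another AP-1 part, did not show this gap, at 4677, 4604 and 5235 CPM in the alopecia, no-alopecia and wild-type libraries. Against wild type the list was even, with 1 higher and 1 lower of 22 with alopecia and 1 higher and 2 lower of 21 without alopecia. The shares over all genes were 5.97% higher and 4.81% lower with alopecia, and 6.88% and 8.27% without alopecia.

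Cell cycle genes were lower with than without alopecia, with 5 of 10 lower, 1 higher and a median of -0.55. They were also lower with alopecia than in wild type, with 6 of 16 lower, 0 higher and a median of -0.36. Over all genes 6.03% were lower and 9.42% higher in the first comparison, and 4.81% and 5.97% in the second. Without alopecia against wild type 3 of 15 listed genes were higher and 1 lower, median 0.39, against 6.88% and 8.27% over all genes. Mki67, the antigen Ki-67 of dividing cells, was at 88.0 CPM in 31 cells with alopecia, 169 CPM in 21 cells without alopecia and 116 CPM in 57 cells in wild type. A UMI of Mki67 or Top2a was found in 18.6% (14.3 to 23.6) of cells with alopecia, 30.8% (22.7 to 39.9) without alopecia and 20.8% (17.2 to 24.8) in wild type, but in 8.68%, 11.0% and 7.88% of thinned cells, and in 4.32%, 0.8% and 9.09% of fibroblast-like cells. Oxidative phosphorylation genes were even, with 0 of 20 past 1.5-fold in all 3 comparisons. Genes of proximal T-cell receptor signalling were even against wild type (0 of 21 in both comparisons). Of 15 glycolysis genes Slc2a3, a glucose transporter, and Hk2, a hexokinase, were higher with than without alopecia (1.16 and 0.79) and lower without alopecia than in wild type (-1.19 and -1.20), and no other member passed 1.5-fold.

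**Figure D5:**
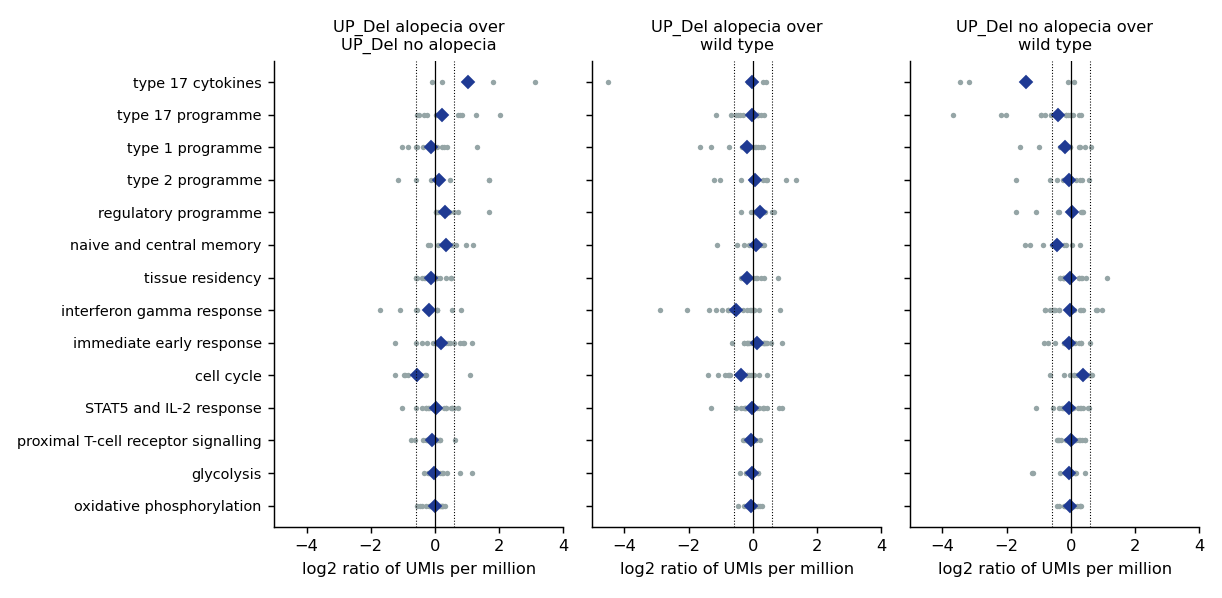
Log2 ratio of CPM (x axis) for genes of 14 lists (rows) in the 3 comparisons of libraries (panels); grey points are genes with at least 50 UMIs over both libraries, blue diamonds list medians and dotted lines 1.5-fold. Type 17 lists lie to the right for alopecia over no alopecia and to the left for no alopecia over wild type, interferon gamma targets to the left for alopecia over wild type (median -0.52), and oxidative phosphorylation lies within the dotted lines.

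Single genes were taken in order of how far their interval stayed from equality. Besides those above, the alopecia library was higher than the no-alopecia library in Cpm, a carboxypeptidase (256 CPM with alopecia, 104 CPM without alopecia and 165 CPM in wild type), and in Arhgap15, a regulator of Rac (538 CPM with alopecia, 250 CPM without alopecia and 479 CPM in wild type). Pard3b, a polarity gene, had 67 UMIs in 13 cells with alopecia, 3 UMIs in 1 cell without alopecia and 8 UMIs in 5 cells in wild type. Lower with alopecia was Tnc, the matrix protein tenascin C, with 12 UMIs in 9 cells with alopecia, 48 UMIs in 11 cells without alopecia and 60 UMIs in 25 cells in wild type (-3.06, -4.11 to -2.13). Hist1h1b, a linker histone, was at 21.4 CPM with alopecia, 104 CPM without alopecia and 112 CPM in wild type, with 58.7% of its no-alopecia UMIs in 1 cell, and Ccdc184 at 12.7 CPM with alopecia, 58.0 CPM without alopecia and 14.3 CPM in wild type. The chemokine Ccl4 was at 19.0 CPM in 7 cells with alopecia, 76.2 CPM in 5 cells without alopecia and 33.2 CPM in 18 cells in wild type. Other genes lower with alopecia had much of their no-alopecia RNA in the top cell of the gene. That cell held 93.1% of the UMIs of Thbs1, 95.8% of Serpinb2, 72.9% of Cxcl14, 66.7% of Arc, 58.1% of Krt14 and 50.9% of Krt5. Arc was found in 8 no-alopecia cells and Krt5 in 2, and whether genes shared their top cell is not given here.

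Against wild type the alopecia library was higher in Ehd3, an endocytic recycling protein, which was spread over many cells: 127 CPM in 105 cells with alopecia, 109 CPM in 40 cells without alopecia and 48.8 CPM in 89 cells in wild type (1.38, 1.02 to 1.74). Tff1, a trefoil peptide, was at 72.9 CPM in 14 cells with alopecia, 38.1 CPM in 4 cells without alopecia and 12.6 CPM in 10 cells in wild type, and Dst, the cytolinker dystonin, at 75.3, 46.4 and 21.9 CPM in the alopecia, no-alopecia and wild-type libraries. Penk, the enkephalin precursor, had 108 UMIs in 10 cells with alopecia, 51 UMIs in 5 cells without alopecia and 38 UMIs in 4 cells in wild type; Ikzf2+ cells held 100 of the 108 with alopecia, 7 of the 51 without alopecia and 33 of the 38 in wild type. All 33 were in 1 wild-type cell and the 7 in 1 no-alopecia cell, and 76.5% of the no-alopecia UMIs were in 1 other cell. Tyrobp, an adaptor of activating receptors, was at 105 CPM with alopecia, 103 CPM without alopecia and 45.0 CPM in wild type, and at a log2 ratio of 0.03 (-0.71 to 0.75) for alopecia over wild type with Ikzf2+ cells left out. Itga6, an integrin chain that keratinocytes also make, depended on 1 cell with 60.6% of its alopecia UMIs: its log2 ratio of 1.38 became 0.32 without that cell, -0.56 without Ikzf2+ cells and -0.43 without cells that held keratinocyte, fibroblast or mast RNA. Palld, an actin-binding protein, was lower with alopecia, with 5 UMIs in 3 cells with alopecia, 17 UMIs in 4 cells without alopecia and 209 UMIs in 21 cells in wild type (-4.47, -6.11 to -3.23). Keratinocyte genes were also among the lower ones, but nearly all of their wild-type RNA was in the top cell of each gene. That cell held 98.9% of the wild-type UMIs of Defb6, 100% of Krt79, 99.5% of Cst6, 97.5% of Alox12e and 99.6% of Krt17. Mt1 and Mt2, the metallothioneins, were higher without alopecia than in wild type (3.14 and 5.14), but at 0.17 and 0.36 without cells that held keratinocyte, fibroblast or mast RNA.

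Reads from the 5′ end of transcripts also covered variable segments of the T-cell receptor. Both an alpha and a beta variable segment were found in 123 cells with alopecia, 68 without alopecia and 254 in wild type. The effective number of pairs (the inverse of the chance that a pair of cells drawn with replacement share their segments) was 58.9 with alopecia, 17.6 without alopecia and 90.9 in wild type, against 59.1 with alopecia, 34.4 without alopecia and 50.1 in wild type among Foxp3+ cells. This number cannot exceed the cells counted, which among Foxp3+ cells were 81 with alopecia, 38 without alopecia and 69 in wild type. The part of cell number in the low value without alopecia was not tested. The most frequent pair there was Trav14d-3-dv8 with Trbv23, which 13 of the 68 conventional cells with both segments carried (19.1%, 10.6 to 30.5). These segments lie on chromosome 14 (53078452 to 53079045) and chromosome 6 (41216073 to 41216526), both on the plus strand of GRCm38 (GENCODE vM21). The pair was also found in 6 members with alopecia and in 0 in wild type, where 0 of 457 allows up to 0.656%. Among all kept CD45+ cells it was found in 15 with alopecia, 22 without alopecia and 0 in wild type, in no Foxp3+ or CD8 T cell by the rule, and on no barcode that both UP_Del libraries hold. Of the 22 no-alopecia cells, 1 held a Foxp3 UMI but missed another condition of the Foxp3+ rule. This pair was picked out after its values were seen, and near-identical copies of Trav genes make the assignment to a segment uncertain; cells that share segments need not be a clone.

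The cells with this pair in the no-alopecia library held more Cxcr6, Tbx21 and Icos RNA than the other members there, and no more Ifng. Cxcr6, a chemokine receptor of resident T cells, was at 1412 CPM in the 13 cells (12 of them positive) and 681 CPM in the other members of that library, Tbx21 at 397 against 185 CPM (9 of 13) and Icos at 3237 against 1913 CPM (13 of 13). Klf2, a factor of circulating T cells, was at 47.6 against 303 CPM, and Ccr7, the lymph node homing receptor, had 0 UMIs against 155 CPM. Ifng was at 127 against 163 CPM, and Il17a and Ikzf2 had no UMI in them. Gzmb, granzyme B, was at 714 against 55.5 CPM, but 93.3% of it was in 1 cell. In the 6 alopecia cells with the pair, Icos was at 2190 against 1422 CPM, Cxcr6 at 601 against 509.5 CPM and Ifng at 429 against 204 CPM, with 70% of that Ifng in 1 cell. Of the joining segments, Traj37 was found in 5 of the 13 no-alopecia cells. Trav13-4-dv7 with Trbv26 was in 7 members with alopecia and in 0 of the other 2 libraries. Trav10d with Trbv13-2 was in 0 members with alopecia, 1 without alopecia and 15 in wild type.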

How the data were processed

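The libraries were made with a 5′ droplet kit (HT v2) from digested skin, 3 of them from sorted live CD45+ cells. The deposited matrices hold raw UMI counts per gene and barcode, made with Cell Ranger 7.1.0 on mm10 per the submitters' processing notes; which annotation release went with it is not given in the sources used here. Both members and gene lists were chosen with earlier results of these data known.

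UMIs of the members were summed per library and divided by their total (CPM), and a gene entered a comparison with at least 50 UMIs over both libraries; a difference was counted past 1.5-fold. Single genes were named by how far the 95% interval of their ratio lay from 1: the first 10 in each direction between the UP_Del libraries and the first 8 in each direction against wild type, all with at least 50 CPM in the higher library. Genes of the rule, receptor segments, mitochondrial, ribosomal and unnamed genes were left out, as were genes at under 5% of their CPM in fibroblast-like, keratinocyte-like, Langerhans-like, macrophage-like or mast-like cells. A fold against 0 UMIs used a floor of 3 counts over the group. With 1 library per group no model across samples was fitted. The intervals were run on simulated Poisson counts, which is the model they assume. Those counts hold no clustering of UMIs in single cells, so the run cannot show how the intervals fare with it.

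Doublets were kept: the automatic threshold of the simulated-doublet score marked 0 cells with alopecia, 4 without alopecia and 0 in wild type. Removing the highest scores at 0.4% per 1000 barcodes was 1 of the alternatives; the others changed cell filters, thresholds, depth, scaling, count minimum and the weight of single cells. Python 3.11.15, numpy 2.4.6, scipy 1.17.1, pandas 2.3.3, scanpy 1.11.5, matplotlib 3.10.9 and edgeR 4.0.16 (trimmed-mean factors only) were used. Promoters are from RefSeq on GRCm38.p6 and gene coordinates from GENCODE vM21. Some items are not reported here.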

Additional observations from a re-analysis of the deposited data

Results flagged for a closer look

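Among named and listed genes with at least 50 UMIs over both UP_Del libraries in each cell group, 11 went opposite ways. Their log2 ratio of alopecia to no alopecia was negative in conventional CD4 T cells and positive in Foxp3+ CD4 T cells, past 1.5-fold in each. The number of genes searched is not given here. Every group is 1 library and the difference between the cell groups was not tested. Of cell cycle genes, Mki67 was at -0.94 in conventional cells and 2.87 in Foxp3+ cells, Top2a at -0.83 and 1.68, Stmn1 at -1.25 and 1.54, and Tubb5 at -0.97 and 0.63. The highest no-alopecia cell held 19.6% of the Mki67 UMIs, 19.0% of Top2a, 20.6% of Stmn1 and 12.7% of Tubb5 among conventional cells. In Foxp3+ cells Mki67 was at 114 CPM with alopecia and 15.6 CPM without alopecia.

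Pdcd1 was at -0.59 in conventional cells and 0.74 in Foxp3+ cells, and Gzmb at -1.03 and 1.12. For Gzmb, 1 conventional cell held 36.4% of the UMIs with alopecia and 1 held 56% without alopecia. Gzmc was at -1.18 and 4.66, with 69.5% of its no-alopecia UMIs in 1 conventional cell, and at -0.20 without the top cells. Xcl1 was at -1.25 in conventional cells, with 69% in 1 no-alopecia cell, and Ccl4 at -2.00; in Foxp3+ cells of the no-alopecia library both had 0 UMIs. Thbs1 was at -4.44 and 1.39 and Serpinb2 at -2.17 and 6.74, with 93.1% and 95.8% of the no-alopecia UMIs in 1 conventional cell.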

How the results depend on the processing

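The share of conventional CD4 T cells stayed lower in both UP_Del libraries than in wild type under all 11 alternatives run for it; alopecia over wild type was -0.79 (log2) with barcodes thinned to 1000 UMIs, against -1.16. Il2ra stayed below wild type in both UP_Del libraries under all 15 alternatives. Without cells that held an Ikzf2 UMI its log2 ratio was -0.21 for alopecia over no alopecia, the direction turned, and -0.44 for no alopecia over wild type. Thinned, where 75, 26 and 93 members were left in the alopecia, no-alopecia and wild-type libraries, it was 1.64 for alopecia over no alopecia, -0.77 for alopecia over wild type and -2.41 for no alopecia over wild type.

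Genes past 1.5-fold numbered 758 for alopecia over no alopecia, 730 for alopecia over wild type and 931 for no alopecia over wild type. With a minimum of 20 UMIs there were 1848, 1704 and 2050 for those comparisons, with 200 UMIs 113, 127 and 142, thinned 63, 79 and 88, and with at least 2 Cd4 UMIs 462 for alopecia over no alopecia. Fewer UMIs or genes enter under the stricter of these settings. Without the top cell of each gene the split of alopecia over wild type was 303 higher and 335 lower, and that of no alopecia over wild type 223 higher and 712 lower; for alopecia over no alopecia it was 546 higher and 191 lower, against 462 and 296.

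Named genes turned direction in 4 of 701 values: Zfp36, alopecia over no alopecia, at -0.19 and Il2, alopecia over wild type, at -0.54 when thinned; and Itga6, alopecia over wild type, at -0.56 without Ikzf2+ cells and -0.43 without cells holding keratinocyte, fibroblast or mast RNA. In 15 other values the direction stayed but the interval held equality. Among them, thinned, were Ccl5 (1.28, -0.84 to 4.46), Fos (0.83, -0.005 to 1.78), Cpm (0.72, -0.87 to 2.73) and Arhgap15 (0.93, -0.34 to 2.48), each for alopecia over no alopecia. The causes were not tested. The alternatives without the top cell and without cells of other types' RNA were chosen after seeing the data. No paired analysis was possible because each group is 1 library. The no-alopecia library, with 120 cells, limits every comparison it enters.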

Other observations

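Cell death genes showed 3 of 13 higher and 0 lower with than without alopecia, against 9.42% higher and 6.03% lower over all genes: the p53 targets Pmaip1 (1.11), Bbc3 (0.88) and Bax (0.78), at 64.2, 57.9 and 125 CPM with alopecia and 29.8, 31.5 and 72.9 CPM without alopecia. Against wild type 2 of 14 were higher and 1 lower with alopecia, and 0 higher and 3 lower without alopecia. The shares over all genes against wild type were 5.97% higher and 4.81% lower with alopecia, and 6.88% and 8.27% without alopecia. Of cytotoxic effectors, 0 of 8 were higher and 2 lower with than without alopecia (Gzmc and Gzmb), but Gzmc was at -0.20 without its top cells. For Gzmb, 1 cell held 36.4% of the UMIs with alopecia and 1 cell 56% without alopecia. The type 2 list had 2 higher and 2 lower of 9 with than without alopecia, 2 higher and 2 lower of 12 with alopecia against wild type, and 0 higher and 2 lower of 9 without alopecia against wild type. Of 21 secreted cytokines and chemokines 6 were higher and 5 lower with than without alopecia. Cxcl2, a neutrophil attractant, had 56 UMIs with alopecia, 0 without alopecia and 52 in wild type, with 60.7% of the alopecia UMIs in 1 cell.

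Costimulatory receptors had 0 of 10 past 1.5-fold between the UP_Del libraries, and skin homing genes 0 higher and 1 lower of 13. Heat shock genes had 2 higher and 0 lower of 14, NF-kB targets 2 higher and 2 lower of 15, sterol synthesis genes 0 higher and 1 lower of 7, and common gamma-chain receptors 2 higher and 1 lower of 8, each with against without alopecia. Over all genes 9.42% were higher and 6.03% lower with than without alopecia. Of the type I interferon response only 4 genes were measured in that comparison and of follicular help only 5. The CD4 helper identity list had a median log2 ratio of -0.06 for alopecia over no alopecia, -0.14 for alopecia over wild type and -0.05 for no alopecia over wild type.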
